A study of Mus musculus with 12 samples.

Results

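The genes described here are 30 genes of mitosis, the spindle checkpoint and cytokinesis, taken by gene symbol from 2 RNA-seq count tables that hold 24421 symbols each. All 30 were found in both tables and all 30 passed the filter on low counts in every comparison. They comprise 8 mitotic kinases, cyclins and their regulators, 6 genes of the spindle checkpoint and anaphase onset, 4 genes of the chromosomal passenger complex, 6 spindle motors, microtubule or chromosome factors, and 6 genes of the central spindle and cytokinesis.

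The study profiled mRNA from Etl4 knockout (KO) and wild-type (WT) mouse haploid embryonic stem cells (ESCs). These are cells that grow with a single set of chromosomes, here of androgenetic (paternal) origin and C57BL/6 background. The first table held OdG Etl4 KO line 1 (n = 2 libraries), OdG Etl4 KO line 2 (n = 2) and OdG WT (n = 2). The second held EG1 Etl4 KO (n = 3) and EG1 WT (n = 3). OdG and EG1 are the names of the parental lines in the labels. The labels give the genotype as Etl4 KO without describing the edit, and they do not state the ploidy of the cells when RNA was taken. Each KO group is 1 line, so that a KO difference cannot be told apart from a difference between derived lines. Nothing in the labels says that replicates were separate cultures, so the p-values reflect differences among libraries that may be technical repeats.

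In mitosis, cyclin B bound to Cdk1 drives entry, Wee1 holds Cdk1 back by phosphorylation, and Cdc25 phosphatases release it. The spindle checkpoint (Bub1, Bub1b, Mad2l1, Ttk) keeps Cdc20, the activator of the anaphase promoting complex (APC), inactive until every chromosome is attached; active APC-Cdc20 then frees separase (Espl1) and destroys cyclin B. The central spindle (Prc1, Kif23, Racgap1, Kif20a) and the contractile ring (Ect2, Anln) then divide the cell. Haploid ESCs turn diploid in culture when a cell copies its genome without completing division, which is why these genes are of interest in a haploid line. Transcripts of most of them peak in G2 and M phase. In bulk RNA, fewer cells in those phases and less RNA per cell cannot be told apart.

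Each library held 16110028 to 19706599 counts, and 1 CPM (the count relative to the scaled library total) stood for 16.1 to 19.7 counts. Counts of the 30 genes ran from 446 for Cdc25c to 17823 for Top2a in a single library. Etl4 itself was reduced but not lost, with 97.2 and 101 CPM in OdG KO line 1, 109.7 and 114 CPM in OdG KO line 2, and 210.4 and 206 CPM in OdG WT. It had 131, 134 and 132 CPM in EG1 KO and 265, 264 and 259.9 CPM in EG1 WT. These counts cover the whole gene, and whether an exon was removed was not tested. All 10 listed ESC markers were expressed, with a summed level of 7878.6 to 8398.5 CPM in the OdG KO libraries and 7411.7 to 7490.9 CPM in OdG WT, and 9254.7 to 9478.4 CPM in EG1 KO and 9331.7 to 9462 CPM in EG1 WT. The 12 listed fibroblast (feeder cell) markers summed to 98 to 167.5 CPM in the OdG KO libraries and 78.7 to 85.9 CPM in OdG WT, and to 147.8 to 159.9 CPM in EG1 KO and 142 to 142.9 CPM in EG1 WT. Most of that sum was Vim, which averaged 79.7 CPM in OdG KO line 1, 151 in line 2 and 58.4 in OdG WT, and 132 in EG1 KO and 123 in EG1 WT. Col1a1 averaged 12.1 CPM in line 1, 2.73 in line 2 and 11 in OdG WT, and 7.42 in EG1 KO and 4.96 in EG1 WT. Postn, Lum, Dcn, Prrx1 and Col3a1 had group means of 0 to 0.267 CPM. In OdG KO, where 59.9% of all genes were called, 9 of the 10 ESC markers were called higher and 1 lower, and 1 of 6 tested fibroblast markers higher and 2 lower. In EG1 KO, where 7.66% of all genes were called, the counts were 2 higher and 1 lower of 10, and 1 higher of 4. The part of either cell type's markers in the results below was not tested.

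In the OdG background, Etl4 KO cells differed from WT at many of these genes, in both directions. Cdc20 was the gene with the largest rise and Kif23, the motor subunit of the centralspindlin complex, the one with the largest fall. At an adjusted p under 0.05 in edgeR's quasi-likelihood test, OdG KO (the mean of both lines) was higher than OdG WT at 11 of the 30 genes and lower at 8, which together is 63.3% of them. Over all 14413 genes tested, 59.9% were called, 29.4% higher and 30.5% lower. The share among the mitotic genes is near the background and is no result about them as a class. When both KO lines were pooled into 1 group, which counts their difference as spread, 8 were higher and 5 lower. The share of all genes called in that pooled fit was not computed. The 11 genes that rose were Cdc20, Plk1, Cdca8, Aurka, Espl1, Kif20a, Ccna2, Mad2l1, Incenp, Cenpf and Racgap1. The 8 that fell were Kif23, Anln, Bub1, Cdc25c, Aurkb, Top2a, Nusap1 and Prc1. The median log2 fold change of the 30 genes was 0.04, against -0.01 over all genes, and their median absolute log2 fold change was 0.15, against 0.28 over all genes. Cdc20 and Kif23 alone exceeded an absolute log2 change of 0.5, which 27.5% of all genes did. With upper-quartile scaling the median of the 30 genes was -0.004, so its sign depends on the scaling. All 4 OdG KO libraries lay above both WT libraries at 12 of the 30 genes and below both at 8; over all genes, 55.5% did not overlap (27.1% above, 28.4% below).

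In the EG1 background few of the mitotic genes were called. EG1 KO was higher than EG1 WT at Cdc20 and Plk1, lower at 0 genes, and not called at the other 28. The called share of 6.67% compares with 7.66% over all 14016 genes tested, 3.6% higher and 4.06% lower. At an unadjusted p under 0.05, edgeR gave 9 genes higher and 1 lower (Bub1), and DESeq2 called 2 higher and 0 lower. The share of all genes was not computed at the unadjusted p or for DESeq2, so these counts are not read as a direction. The median log2 fold change was 0.03, against 0.00 over all genes, and the median absolute change was 0.04, against 0.08. The 3 KO libraries lay above all 3 WT libraries at 8 of the 30 genes and below them at 2; over all genes, 25% did not overlap (12.5% each way). The summed level of the 30 genes was 5936.9 ± 43.3 CPM in OdG KO line 1, 5883.3 ± 22.7 CPM in OdG KO line 2 and 5799.7 ± 39.6 CPM in OdG WT (SD, n = 2 each). It was 6654.8 ± 61.8 CPM in EG1 KO and 6484.3 ± 33.7 CPM in EG1 WT (SD, n = 3 each).

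**Figure D1:**
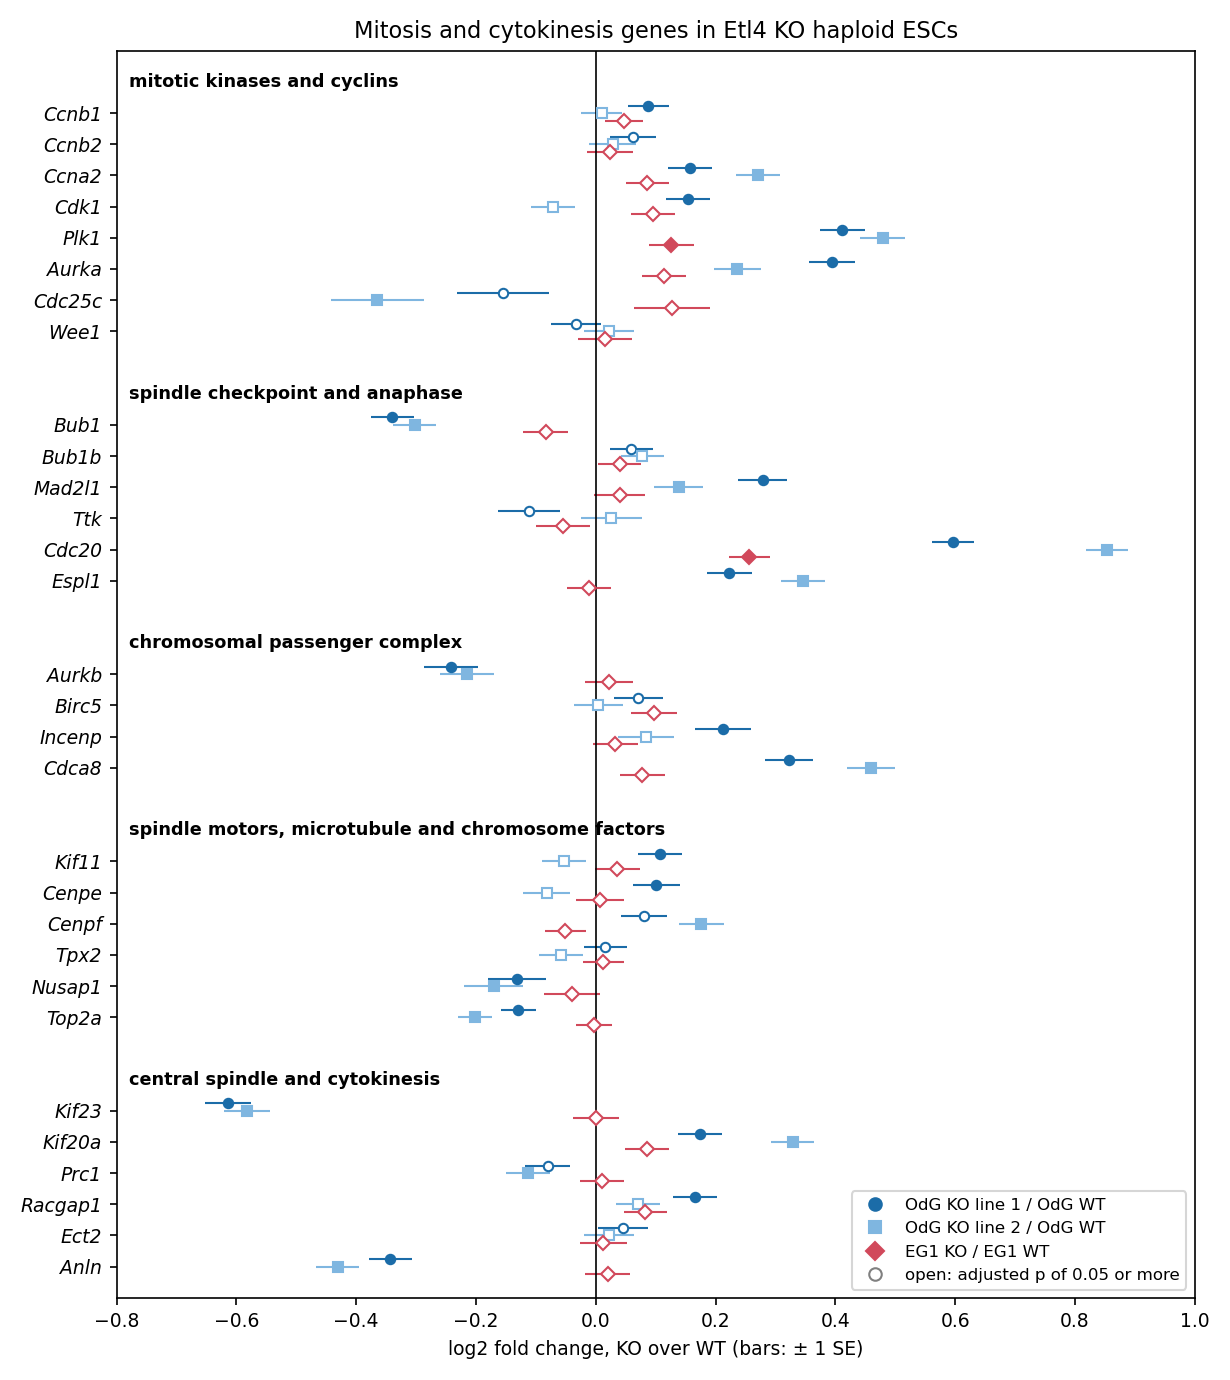
Log2 fold change of each of the 30 genes, grouped by role, for OdG KO line 1 over OdG WT (circles), OdG KO line 2 over OdG WT (squares) and EG1 KO over EG1 WT (diamonds), with bars of 1 SE and open symbols where the adjusted p was 0.05 or more. Cdc20 lies farthest right and Kif23 farthest left in both OdG lines, and the EG1 diamonds lie near 0 except at Cdc20.

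Transcription of G2 and M phase genes is known to run through a promoter element called the cell cycle genes homology region (CHR), often with CCAAT boxes upstream that bind NF-Y. Promoters are shown for the 2 genes that rose in both parental backgrounds, Cdc20 and Plk1, and for the 2 with the largest falls in OdG KO, Kif23 and Anln, so that the sequences of genes that moved in opposite directions can be compared. Each window runs 5′ to 3′ on the gene's strand from 250 bases before to 50 bases after the transcription start annotated by RefSeq (GRCm38.p6). Capitals mark the CHR hexamers TTTGAA and TTCGAA and the CCAAT box, each searched on both strands, so that TTCAAA and ATTGG are their other-strand forms. The windows are chr4:118437294-118437593 (minus strand) for Cdc20, chr7:122159185-122159484 (plus strand) for Plk1, chr9:61946750-61947049 (minus strand) for Kif23 and chr9:22389157-22389456 (minus strand) for Anln.
Cdc20: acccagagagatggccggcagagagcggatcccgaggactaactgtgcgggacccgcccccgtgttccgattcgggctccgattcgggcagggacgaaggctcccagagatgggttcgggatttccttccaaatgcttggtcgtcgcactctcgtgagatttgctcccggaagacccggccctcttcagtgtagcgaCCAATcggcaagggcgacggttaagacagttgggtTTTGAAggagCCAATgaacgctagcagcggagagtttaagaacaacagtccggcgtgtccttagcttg
Plk1: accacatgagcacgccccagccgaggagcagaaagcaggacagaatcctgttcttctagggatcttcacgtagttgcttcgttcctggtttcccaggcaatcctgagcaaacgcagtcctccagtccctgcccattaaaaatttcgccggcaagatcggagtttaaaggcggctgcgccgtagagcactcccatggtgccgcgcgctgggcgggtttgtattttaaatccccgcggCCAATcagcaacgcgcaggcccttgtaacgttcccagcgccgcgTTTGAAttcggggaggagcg
Kif23: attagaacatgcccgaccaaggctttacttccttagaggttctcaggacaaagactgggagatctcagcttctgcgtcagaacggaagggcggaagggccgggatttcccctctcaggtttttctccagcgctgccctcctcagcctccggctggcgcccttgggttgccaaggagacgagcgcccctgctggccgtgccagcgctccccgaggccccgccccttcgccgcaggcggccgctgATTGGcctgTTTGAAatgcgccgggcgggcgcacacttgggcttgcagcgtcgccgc
Anln: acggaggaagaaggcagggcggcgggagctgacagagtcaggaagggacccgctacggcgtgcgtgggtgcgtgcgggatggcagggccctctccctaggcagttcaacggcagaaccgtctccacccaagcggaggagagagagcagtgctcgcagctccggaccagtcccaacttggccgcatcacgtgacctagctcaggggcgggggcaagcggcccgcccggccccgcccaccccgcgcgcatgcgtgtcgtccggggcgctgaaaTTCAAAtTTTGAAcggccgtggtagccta

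The Cdc20 window holds 1 CHR hexamer and 2 CCAAT boxes, and the Plk1 and Kif23 windows hold 1 of each. The Anln window holds 2 CHR hexamers, 1 on each strand, and 0 CCAAT boxes. Of the 30 genes, 23 matched a RefSeq entry, with 25 windows. The last 25 bases of the Mad2l1 and Aurka windows were not found in a GENCODE transcript of the gene. The Mad2l1 window ends at chr6:66535270, before the GENCODE gene start at 66535390, so its lack of matches may reflect the placement of the window. A CHR hexamer was present in 20 of the 25 windows (80%), against 6316 of all 32851 windows of the same length (19.2%). A CCAAT box was present in 21 windows (84%), against 37.4% of all windows, and both motifs in 19 (76%), against 7.52%. Genes that rose and genes that fell in OdG KO both carried the motifs, as the map of matches shows. A match is a description of these letters and not a tested binding site.

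**Figure D2:**
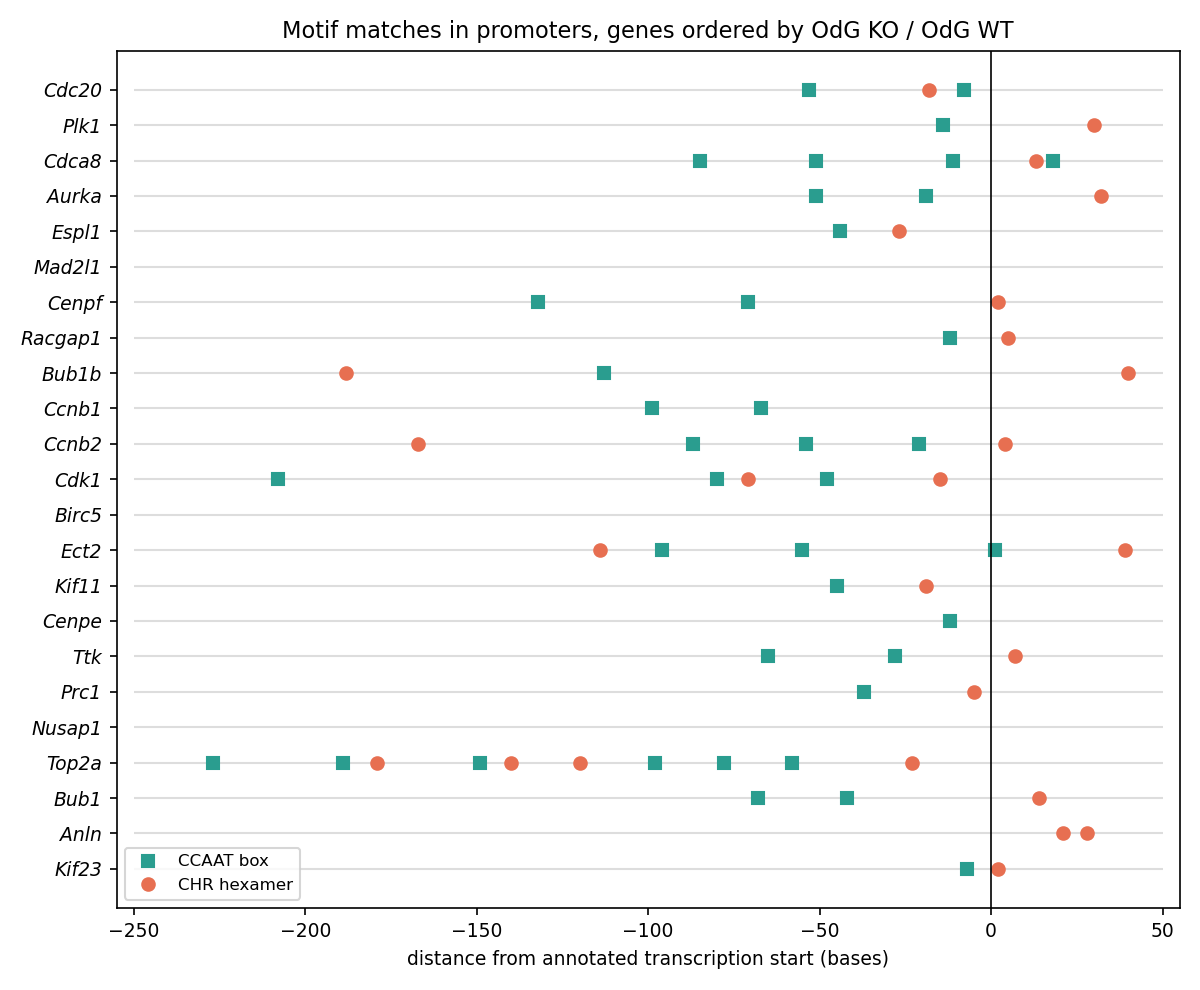
Positions of CHR hexamers (circles) and CCAAT boxes (squares) in the promoter windows, 1 row per gene, by distance in bases from the annotated transcription start, with genes ordered from the largest rise (top) to the largest fall (bottom) in OdG KO over OdG WT. Matches lie close to the start both in Cdc20 at the top and in Kif23 at the bottom. Birc5, Nusap1 and Mad2l1, whose window ends before the gene start annotated by GENCODE, have 0 matches.

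Among the mitotic kinases, cyclins and their regulators, 3 of 8 rose in OdG KO (Plk1, Aurka, Ccna2) and 1 fell (Cdc25c). This count and those of the other role groups below stand against 59.9% of all genes called (29.4% higher, 30.5% lower). Nothing particular to a role group is read from them. Plk1, the polo-like kinase that acts at centrosomes, kinetochores and the midzone, had 197 and 198 CPM in OdG KO line 1, 211 and 203 CPM in line 2, and 148 and 149 CPM in OdG WT. All 4 KO libraries lay above both WT libraries, with a log2 fold change of 0.45 ± 0.0332 (SE, adjusted p = 3.4e-09). In EG1, Plk1 had 225, 211 and 208 CPM in KO and 193, 198 and 199.8 CPM in WT. The groups did not overlap, and the difference was smaller at 0.13 ± 0.0374 (SE, adjusted p = 0.033). That EG1 call was lost on leaving out EG1 KO replicate 1 (adjusted p = 0.087) or EG1 WT replicate 1 (0.18), 2 (0.089) or 3 (0.075).

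Aurka encodes Aurora A, which builds the spindle poles. It had 153 and 155 CPM in OdG KO line 1, 136 and 141 CPM in line 2, and 118 and 117 CPM in OdG WT. The 3 groups separated completely, line 1 highest, and OdG KO was higher by a log2 fold change of 0.32 ± 0.0343 (SE, adjusted p = 4.2e-07). In EG1, Aurka had 197, 191 and 185 CPM in KO and 181, 174 and 175 CPM in WT, a log2 fold change of 0.11 that missed the threshold (adjusted p = 0.054). Without the filter on low counts, Aurka was called higher in EG1 KO (0.115, adjusted p = 0.043). Ccna2, cyclin A2, had 244 and 240.2 CPM in OdG KO line 1, 267 and 258 CPM in line 2, and 214 and 221 CPM in OdG WT. All KO libraries were above WT (log2 fold change 0.21 ± 0.0321, SE, adjusted p = 1.8e-05), while in EG1 its log2 difference of 0.09 was not called. Without EG1 KO replicate 1, Ccna2 was called higher in EG1 KO (0.111, adjusted p = 0.022).

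Cdc25c, a phosphatase that activates Cdk1, was the lowest of the 30 genes, with 30.6 and 34.5 CPM in OdG KO line 1, 27.2 and 28.9 CPM in line 2, and 36.6 and 35.7 CPM in OdG WT. All 4 KO libraries lay below WT, with a log2 fold change of -0.26 ± 0.0666 (SE, adjusted p = 0.0028), a call lost when both KO lines were pooled into 1 group (adjusted p = 0.096). Line 2 was called by itself (-0.36) and line 1 was not (-0.16, adjusted p = 0.099). With upper-quartile scaling line 1 was called lower too (-0.22, adjusted p = 0.025), and it had -0.24 without its replicate 2. In EG1, Cdc25c had 31.1, 32.3 and 30.9 CPM in KO and 28.5, 27.8 and 29.9 CPM in WT, so that KO lay above WT without reaching the threshold (adjusted p = 0.24).

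With all libraries, the core of the entry switch was not called in OdG KO. Cdk1, the kinase itself, had 207 and 212 CPM in line 1, 181 and 177 CPM in line 2, and 189 and 187 CPM in OdG WT. The lines lay on either side of WT: line 1 was called higher (log2 fold change 0.15, adjusted p = 0.002) and line 2 had -0.07 (adjusted p = 0.11). With upper-quartile scaling line 2 was called lower (-0.098, adjusted p = 0.035). Cyclin B1 (Ccnb1) and cyclin B2 (Ccnb2) each had a log2 fold change of 0.05 in OdG KO and were not called. Without OdG WT replicate 2 the OdG KO value of Ccnb1 was 0.083. In line 1 by itself, Ccnb1 was called at 0.09 (adjusted p = 0.04). That line 1 call was lost with upper-quartile scaling (log2 fold change 0.03, adjusted p = 0.53), in DESeq2 (0.11), without OdG WT replicate 1 (0.15) and without line 1 replicate 1 (0.15) or 2 (0.14). Wee1, whose kinase restrains Cdk1, had 98.9 and 98.2 CPM in line 1, 103 and 102 CPM in line 2, and 98.9 and 103 CPM in OdG WT. It had 86.3, 93.1 and 87.9 CPM in EG1 KO and 85.7, 91.5 and 87.3 CPM in EG1 WT. KO and WT overlapped in both backgrounds, and the 95% intervals of the log2 difference were -0.08 to 0.07 in OdG and -0.08 to 0.11 in EG1.

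**Figure D3:**
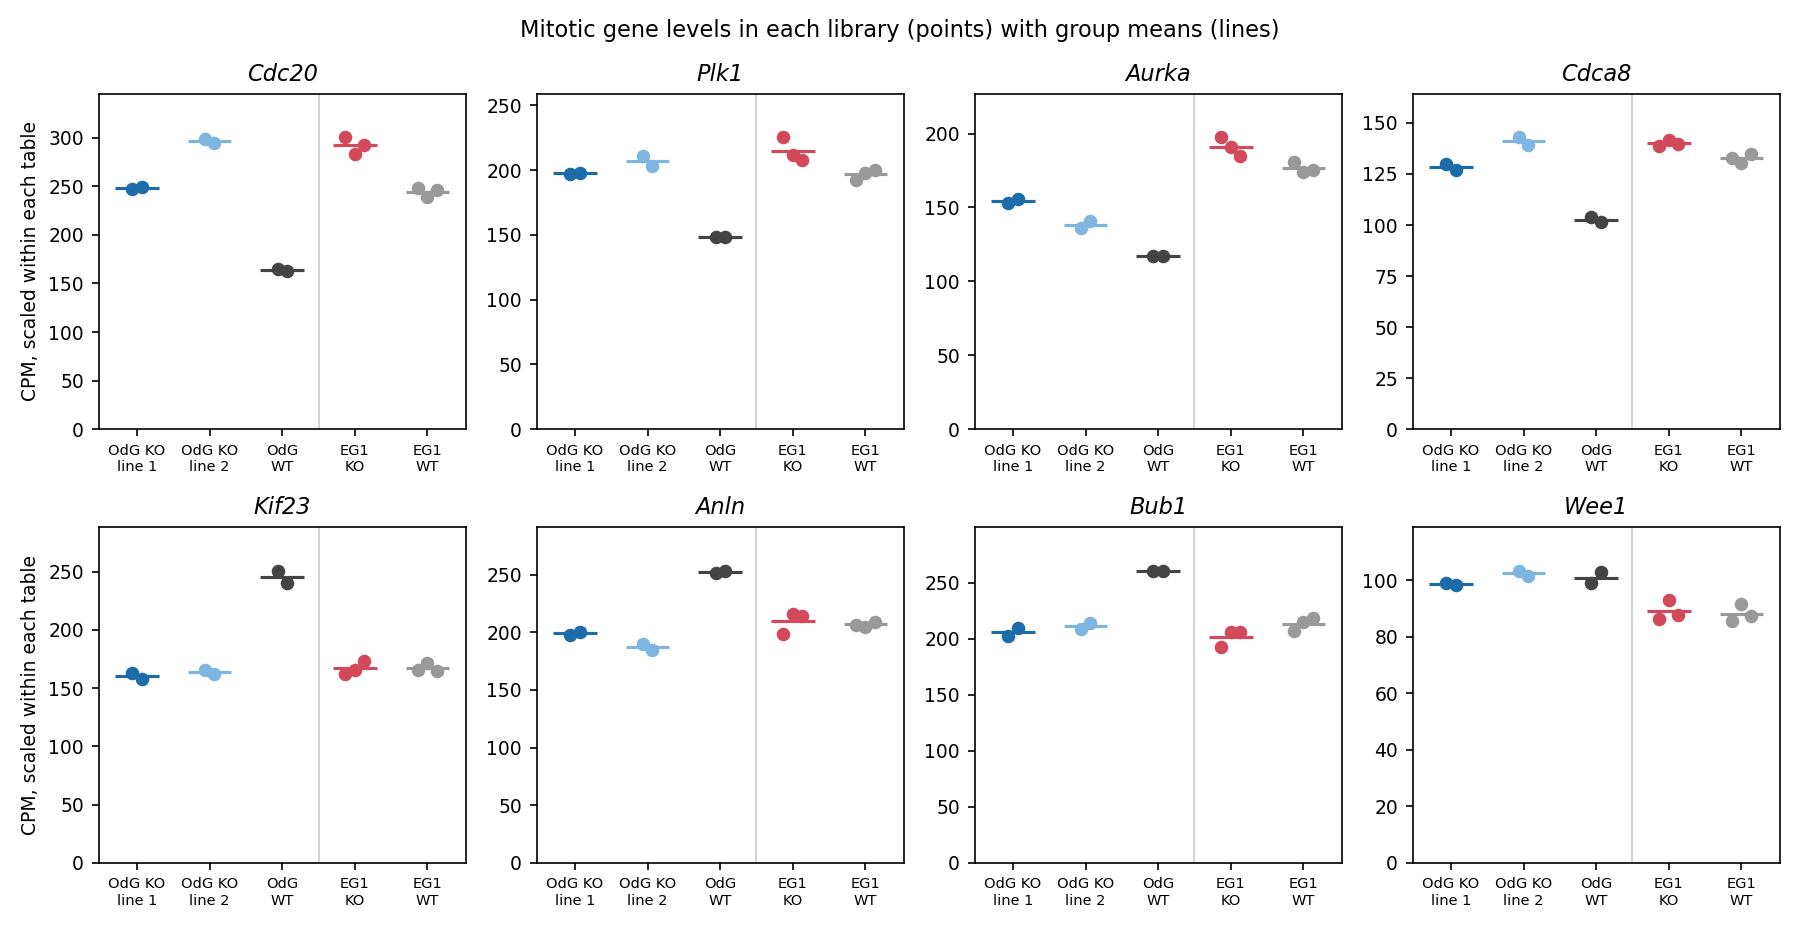
Level of 8 genes in each library in CPM scaled within each table (points), with the group mean (line), for OdG KO line 1, OdG KO line 2 and OdG WT left of the divider and EG1 KO and EG1 WT right of it. For Cdc20, Plk1, Aurka and Cdca8 the OdG WT libraries lie below both OdG KO lines, for Kif23, Anln and Bub1 they lie above them, and Wee1 overlaps.

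At the spindle checkpoint and anaphase onset, 3 of 6 genes rose in OdG KO (Cdc20, Espl1, Mad2l1) and 1 fell (Bub1). Cdc20 had 247 and 249 CPM in OdG KO line 1, 299 and 295 CPM in line 2, and 165 and 163 CPM in OdG WT. The 3 groups were fully apart, line 2 highest, and OdG KO exceeded WT by a log2 fold change of 0.72 ± 0.0314 (SE, adjusted p = 2.9e-12). Line 1 was at 0.60 and line 2 at 0.85. In EG1, Cdc20 had 300.3, 283 and 293 CPM in KO and 248, 239 and 247 CPM in WT. All 3 KO libraries were above all 3 WT libraries (log2 fold change 0.26 ± 0.0349, SE, adjusted p = 3.1e-06), and this call held on leaving out any library.

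Bub1, the checkpoint kinase that also marks centromeres for shugoshin, moved the other way. It had 202 and 209.9 CPM in OdG KO line 1, 209 and 214 CPM in line 2, and 260.4 and 261 CPM in OdG WT. Both lines lay below WT, line 1 by -0.34 and line 2 by -0.30, with a log2 fold change of -0.32 ± 0.0312 over both (SE, adjusted p = 1e-07). In EG1 it had 192, 206 and 206 CPM in KO and 207, 215 and 219 CPM in WT, a log2 difference of -0.08 that was not called (adjusted p = 0.18). Espl1, the separase that cuts cohesin, had 226 and 236 CPM in line 1, 254 and 248 CPM in line 2, and 197 and 198 CPM in OdG WT. Its log2 fold change was 0.28 (adjusted p = 7.8e-07), with overlapping groups and a difference of -0.01 in EG1. Mad2l1, the Mad2 protein that sequesters Cdc20, had 118 and 119 CPM in line 1, 107 and 108 CPM in line 2, and 95.4 and 99.7 CPM in OdG WT. Every OdG KO library lay above WT (0.21, adjusted p = 7.7e-05), and in EG1 the groups overlapped. Bub1b (BubR1) and Ttk (Mps1) had log2 fold changes of 0.07 and -0.04 in OdG KO and were not called. Without OdG WT replicate 2, Bub1b had 0.085. Ttk was called lower in line 1 with upper-quartile scaling (-0.17, adjusted p = 0.0094).

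The chromosomal passenger complex carries Aurora B to centromeres and the midzone. Of its 4 genes, 2 rose in OdG KO (Cdca8, Incenp), 1 fell (Aurkb) and Birc5 was not called. Cdca8 (borealin) had 129.7 and 127 CPM in line 1, 143 and 139 CPM in line 2, and 104 and 102 CPM in OdG WT. The groups were apart (log2 fold change 0.39 ± 0.0351, SE, adjusted p = 3.8e-08), and in EG1 the KO libraries at 139, 142 and 139.6 CPM lay above the WT libraries at 133, 130.3 and 135 CPM without being called (adjusted p = 0.23). The kinase gene Aurkb had 82 and 86.1 CPM in line 1, 84.4 and 86.4 CPM in line 2, and 101 and 97.2 CPM in OdG WT. It was lower in all 4 KO libraries (log2 fold change -0.23 ± 0.0388, SE, adjusted p = 6.9e-05), and EG1 KO and WT overlapped. The scaffold gene Incenp was called at 0.15 (adjusted p = 0.0048), but its KO and WT libraries overlapped, and it was not called (adjusted p = 0.1) once OdG WT replicate 2 was left out or when both KO lines were pooled into 1 group (adjusted p = 0.14). Birc5 (survivin) differed by a log2 value of 0.04 in OdG KO. In EG1 it was not called (0.10, adjusted p = 0.13), but without EG1 KO replicate 1 it was called higher (0.122, adjusted p = 0.025).

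Among the spindle motors, microtubule and chromosome factors, 1 of 6 rose in OdG KO (Cenpf) and 2 fell (Top2a, Nusap1). Top2a, topoisomerase II alpha, which unlinks sister chromatids, had 797 and 812 CPM in line 1, 763 and 767 CPM in line 2, and 898 and 861 CPM in OdG WT. All KO libraries were lower (log2 fold change -0.17 ± 0.025, SE, adjusted p = 2e-05), while EG1 KO and WT overlapped with a difference of 0.00. The spindle protein gene Nusap1 fell by 0.15 on the log2 scale (adjusted p = 0.0053), and Cenpf, of the outer kinetochore, rose by 0.13 (adjusted p = 0.0029). Both calls were lost when both KO lines were pooled into 1 group (adjusted p = 0.088 for Nusap1 and 0.098 for Cenpf). Kif11 (the Eg5 motor that pushes spindle poles apart), Cenpe (the kinetochore motor) and Tpx2 (the activator of Aurora A) had OdG KO differences of 0.03, 0.01 and -0.02 and were not called. With upper-quartile scaling Cenpe was called lower in line 2 (-0.11, adjusted p = 0.026). Kif11 and Cenpe were called in line 1 by itself, at 0.11 (adjusted p = 0.019) and 0.10 (adjusted p = 0.038). Both line 1 calls were lost with upper-quartile scaling (log2 fold changes 0.05 and 0.04, adjusted p = 0.3 for Kif11 and 0.41 for Cenpe) and in DESeq2 (0.076 and 0.15). They were also lost without OdG WT replicate 2 (0.052 and 0.17), line 1 replicate 1 (0.084 and 0.12) or line 1 replicate 2 (0.088 and 0.14).

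At the central spindle and in cytokinesis, 2 of 6 genes rose in OdG KO (Kif20a, Racgap1), 3 fell (Kif23, Anln, Prc1) and Ect2 was not called. Over all genes, 59.9% were called, and a count among 6 genes is not read as a result about the group. Kif23 had 163 and 158 CPM in line 1, 166 and 162.5 CPM in line 2, and 251 and 241 CPM in OdG WT. Both lines lay below WT, line 1 by -0.61 and line 2 by -0.58, with a log2 fold change of -0.60 ± 0.0326 (SE, adjusted p = 5.9e-11). In EG1 it had 163, 166 and 174 CPM in KO and 165, 172 and 165 CPM in WT, which overlapped, with a difference of 0.00 and a 95% interval of -0.08 to 0.08. Racgap1 encodes the other subunit of centralspindlin. It had 186 and 191 CPM in line 1, 176 and 176 CPM in line 2, and 168 and 168 CPM in OdG WT, so that it was higher where its partner was lower (log2 fold change 0.12 ± 0.0322, SE, adjusted p = 0.0043). The Racgap1 call was lost with upper-quartile scaling (adjusted p = 0.058) and when both KO lines were pooled into 1 group (0.11).

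Anln encodes anillin, which links the contractile ring to the membrane. It had 198 and 200.5 CPM in line 1, 189.9 and 185 CPM in line 2, and 251 and 253 CPM in OdG WT. Both lines lay below WT (log2 fold change -0.39 ± 0.0308, SE, adjusted p = 8.2e-09), and in EG1 the KO libraries at 199, 216 and 214 CPM overlapped the WT libraries at 207, 205 and 209 CPM. Kif20a, the motor that carries the passenger complex to the midzone, had 215 and 219 CPM in line 1, 245 and 238 CPM in line 2, and 192 and 192 CPM in OdG WT. Every KO library was higher (0.25 ± 0.0318, SE, adjusted p = 2.6e-06). Prc1, which bundles midzone microtubules, was lower by a log2 difference of -0.10 (adjusted p = 0.016), and this call was lost without line 2 replicate 2 (0.081), in DESeq2 (0.085) and when both KO lines were pooled into 1 group (0.11). Ect2, the activator of RhoA at the cleavage furrow, differed by 0.03 with overlapping libraries.

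Several of these genes overlap exons of a neighbour, and the strand setting of the counting is not given in the sources used here, so that reads in the shared bases cannot be told apart. By GENCODE vM21 exons on mm10, the share of exon bases shared with an opposite-strand gene was 29.3% for Kif20a (with Cdc23), 12.7% for Cdc25c (Gm3550), 12.5% for Ccna2 (Exosc9), 11.1% for Prc1 (Rccd1), 7.09% for Plk1 (Gm44985), 4.48% for Cdca8 (9930104L06Rik), 4.24% for Nusap1 (Oip5) and 2.84% for Cdc20 (Elovl1). Top2a shared 1.35% with a same-strand small nucleolar RNA, Gm23451. The remaining members had no such overlap, Kif23 and Anln among them.

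Per kilobase of exon, Cdc20 was the highest of the 30 genes in all groups but OdG WT, with 133 CPM per kb in OdG KO line 1, 159 in line 2 and 87.9 in OdG WT, and 156 in EG1 KO and 131 in EG1 WT. In OdG WT it stood below Ccnb2, at 100 CPM per kb, and Top2a, at 97.6. Cdc25c was the lowest in every group, between 5.7 CPM per kb in OdG KO line 2 and 7.35 in OdG WT.

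The KO lines of OdG can be set against OdG WT one at a time, although they share those 2 WT libraries. Line 1 was called higher at 14 of the 30 genes and lower at 6, with 52.8% of all genes called (26.8% higher, 26.1% lower). Line 2 was called higher at 9 and lower at 8, with 59.9% of all genes called (30% higher, 29.8% lower). With upper-quartile scaling, line 1 had 11 higher and 9 lower and line 2 had 9 and 10. The genes called higher in both lines were Cdc20, Plk1, Cdca8, Aurka, Espl1, Kif20a, Ccna2 and Mad2l1, and those called lower in both were Kif23, Anln, Bub1, Aurkb, Top2a and Nusap1. These 8 and 6 genes compare with 19.4% and 18.7% of all genes called higher and lower in both lines. Called in opposite directions were 0 of the 30, against 2.54% of all genes. With upper-quartile scaling Cdk1 was called lower in line 2 (log2 fold change -0.098, adjusted p = 0.035) and still higher in line 1. The count of 0 thus depends on the scaling. The line 1 call of Nusap1 was lost in DESeq2 (adjusted p = 0.12), without OdG WT replicate 2 (0.15) and without line 1 replicate 2 (0.34), and its line 2 call without line 2 replicate 1 (0.14). The line 2 call of Mad2l1 was lost in DESeq2 (0.055), without OdG WT replicate 1 (0.053) and without line 2 replicate 2 (0.054).

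Line 1 and line 2 also differed from each other, by log2 fold changes of -0.26 to 0.23. Line 1 was higher at 8 genes (Cdk1, Aurka, Cdc25c, Mad2l1, Incenp, Kif11, Cenpe, Racgap1) and lower at 6 (Cdc20, Kif20a, Cdca8, Ttk, Espl1, Ccna2), with 37.8% of all genes called between the lines (19.2% higher, 18.6% lower). The widest gaps were Cdc20, at -0.26 ± 0.0344 (SE, adjusted p = 1.3e-05), and Cdk1, at 0.23 ± 0.0371 (SE, adjusted p = 0.00012). Kif23, Bub1, Aurkb and Anln, which fell in both lines, were not called between them. DESeq2 called 4 genes higher and 3 lower in line 1, upper-quartile scaling 5 and 8, and RLE scaling (DESeq2's size factors) 6 and 7. Leaving out 1 KO library left 3 to 6 higher and 1 to 4 lower: 6 and 3 without line 1 replicate 1, 4 and 3 without its replicate 2, 3 and 1 without line 2 replicate 1, and 4 and 4 without its replicate 2.

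The size of the KO effect differed between the parental backgrounds at 14 of the 30 genes (46.7%) in a joint fit over all 12 libraries, against 39.8% of 14977 genes. The effect in OdG was the more positive at 8 genes and the more negative at 6 (20.2% and 19.5% of all genes). For Cdc20 the OdG effect exceeded the EG1 effect by 0.46 ± 0.0471 on the log2 scale (SE, adjusted p = 3.3e-09), although both rose. For Kif23 the difference was -0.61 ± 0.0505 (SE, adjusted p = 4.7e-11) and for Anln -0.41 ± 0.0495 (SE, adjusted p = 6.4e-08). For Aurka (0.19, adjusted p = 0.0031) the effect had the same sign in both backgrounds, whereas for Cdc25c (-0.40, adjusted p = 0.00072) the signs were opposite and the EG1 effect was not called. Ccna2 (adjusted p = 0.051) and Racgap1 (adjusted p = 0.69) did not pass this test. Ccna2 passed it with RLE scaling (adjusted p = 0.042) and without EG1 WT replicate 3 (0.047) or EG1 KO replicate 3 (0.017). Its result therefore depends on the processing. Mad2l1 passed it (0.16), but not when OdG WT replicate 1 (adjusted p = 0.13), OdG KO line 1 replicate 2 (0.05) or EG1 WT replicate 3 (0.084) was left out, nor with upper-quartile scaling (0.07).

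The levels were also compared across both tables. With all 12 libraries scaled together, both OdG WT libraries lay outside the range of the other 10 at 15 of the 30 genes, above it for Kif23, Anln, Bub1 and Cdc25c and below it for Ccna2, Plk1, Aurka, Bub1b, Mad2l1, Cdc20, Espl1, Cdca8, Cenpf, Kif20a and Racgap1. Over all 14977 genes the share was 37.3%. The same count was 1 gene for OdG KO line 1 (16.4% of all genes), 7 for line 2 (18%), 3 for EG1 KO (8.66%) and 1 for EG1 WT (6.6%). Kif23, for example, had 158 to 174 CPM in each of the 10 other libraries on the within-table scale, against 251 and 241 CPM in OdG WT. The OdG and EG1 libraries come from separate tables, so that parental line and table cannot be told apart, and no test was made of this pattern.

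Genes that work beside these 30 were described from 8 lists of 192 symbols. The median log2 fold change of a list in OdG KO was 0.12 for the APC, 0.06 for kinetochore partners, 0.05 for cohesin and condensin, 0.02 for the centrosome, 0.07 for abscission, 0.05 for entry regulators, 0.12 for G2/M transcription factors and 0.09 for G1/S, against -0.01 over all genes. Counts of called genes in these lists stand against 59.9% of all genes in OdG KO (29.4% higher, 30.5% lower) and 7.66% in EG1 KO (3.6% higher, 4.06% lower), and nothing particular to a list is read from them. For the counts at an unadjusted p or in DESeq2 given below, no share of all genes was computed, and they are not read either. In EG1 KO the list medians ran from -0.01 to 0.06, against 0.00. The list medians were not computed with other scalings. In OdG KO the median of the 30 genes changed sign with upper-quartile scaling, so the list medians are not read as a direction. Of 18 APC subunits and regulators, 8 rose in OdG KO and 1 fell. Anapc16, an APC subunit, rose by 0.33 (SE 0.0768, adjusted p = 0.0013) and Fbxo5, the APC inhibitor Emi1, fell by 0.21 (SE 0.0378, adjusted p = 0.00015). In EG1 KO, 2 rose and 0 fell, with Ube2c, the APC's ubiquitin-conjugating enzyme, at 0.15 (SE 0.0343, adjusted p = 0.0051).

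Of 34 kinetochore and checkpoint partners, 10 rose and 9 fell in OdG KO. Mad1l1, which recruits Mad2 to kinetochores, had the largest rise at 0.68 (SE 0.0615, adjusted p = 4.2e-08), and Nsl1, of the Mis12 complex, the largest fall at -0.31 (SE 0.051, adjusted p = 4.3e-05). Of 20 cohesin and condensin genes, 7 rose and 7 fell, with the cohesin regulator Pds5b at 0.34 (adjusted p = 4.3e-07) and the cohesin subunit Stag2 at -0.24 (adjusted p = 8.7e-06). EG1 KO had 0 calls in either list in edgeR and in DESeq2, with 4 kinetochore genes higher and 3 lower at an unadjusted p under 0.05 and 0 of the cohesin and condensin genes.

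Of 34 centrosome and spindle assembly genes, 11 rose and 6 fell in OdG KO, with the pericentriolar scaffold Pcnt at 0.35 (adjusted p = 5.3e-07) and Stil, needed for centriole duplication, at -0.49 (adjusted p = 1.1e-06). In EG1 KO 3 rose and 0 fell, Kifc1, a minus-end motor, by 0.16 (adjusted p = 0.0088). Of 24 tested genes of abscission and the contractile ring, 10 rose and 7 fell in OdG KO, with the ESCRT subunit Chmp4c at 0.73 (adjusted p = 3.1e-07) and the myosin light chain kinase Mylk at -1.48 (adjusted p = 5.3e-08). EG1 KO had 0 calls among them in edgeR and in DESeq2, and 3 higher and 0 lower at an unadjusted p under 0.05.

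Of 19 other regulators of mitotic entry, 6 rose and 4 fell in OdG KO, with Gtse1, a microtubule-associated regulator of p53, at 0.95 (SE 0.0504, adjusted p = 4.1e-11) and the Hippo kinase Lats1 at -0.48 (adjusted p = 9e-07). In EG1 KO 0 rose and 1 fell, the CDK inhibitor Cdkn1a, by 0.13 (adjusted p = 0.017). Of 16 transcription factors and cofactors of G2/M genes, 9 rose and 3 fell in OdG KO. Lin37, a subunit of the DREAM repressor, was at 0.72 (adjusted p = 1.2e-06) and the pocket protein gene Rbl2 at -0.76 (adjusted p = 4e-06), and EG1 KO had 0 calls in edgeR and in DESeq2, with 1 higher and 0 lower at an unadjusted p under 0.05. Of 25 genes of G1/S and DNA replication, 13 rose and 4 fell in OdG KO, with cyclin D1 (Ccnd1) at 0.86 (adjusted p = 2.3e-12) and E2f1 at -0.36 (adjusted p = 3.7e-07). In EG1 KO 3 rose and 0 fell, cyclin E1 (Ccne1) by 0.20 (adjusted p = 0.00028). Where 0 genes of these lists were called in a direction in EG1 KO, edgeR at an unadjusted p under 0.05 had 0 APC, 0 centrosome and 2 G1/S genes lower and 1 entry regulator higher, and DESeq2 called 0 of each. The summed G1/S level was 6221.8 to 6456 CPM in the OdG KO libraries and 5626.3 to 5643.5 CPM in OdG WT, and 6682.2 to 6923.2 CPM in EG1 KO and 6522.4 to 6560.5 CPM in EG1 WT.

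**Figure D4:**
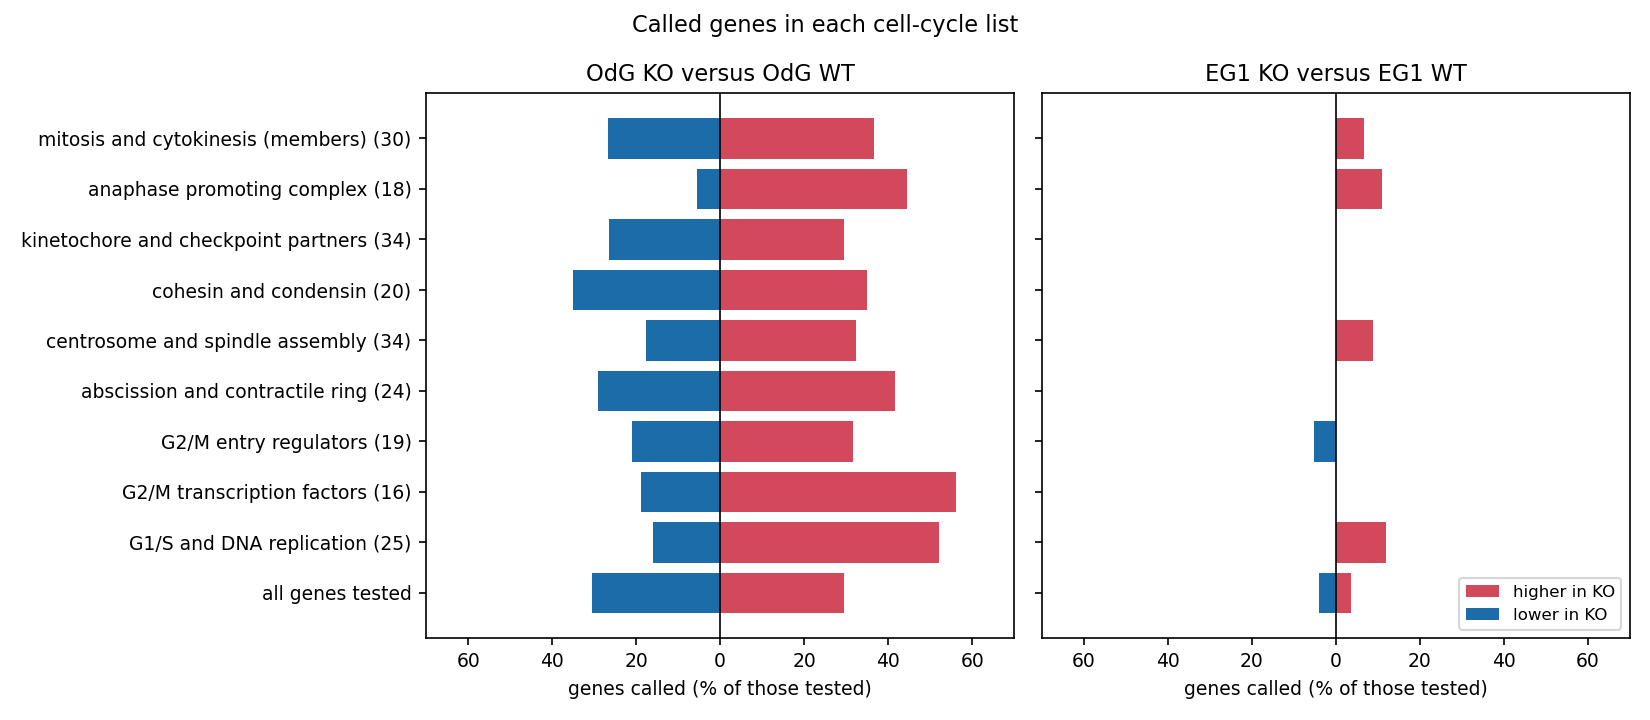
Share of tested genes called higher (right of 0) and lower (left of 0) in KO for the 30 mitotic genes, the 8 partner lists and all genes tested, with the number of tested genes in brackets, for OdG KO versus OdG WT and EG1 KO versus EG1 WT. In OdG the lists hold calls on both sides, and in EG1 the 30 mitotic genes show 6.67% called, all higher.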

How the data were processed

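RNA-seq was measured in 12 libraries. The labels' protocols describe Trizol extraction and NEBNext Ultra libraries. Named in the submitters' processing notes are featureCounts 1.6.4, HISAT2 2.1.0, CASAVA, the mm10 build and DESeq2. Which annotation and strand setting were used is not given in the sources used here. Raw counts for each gene symbol were deposited by the authors in 2 tables. Columns were matched to samples by name and by the table each sample's description names, and 0 were left unmatched.

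Testing used edgeR 4.0.16 under R 4.3.3, with filterByExpr (minimum count 10), scaling by the trimmed mean of M values, and a quasi-likelihood fit with 1 mean per group in each table. OdG KO is the mean of both KO lines on the log scale. The difference between parental lines was an interaction in a joint fit of all 12 libraries. Tests were two-sided, and calls used a Benjamini-Hochberg adjusted p under 0.05 over all genes tested. The biological coefficient of variation was 3.34% in OdG, 3.53% in EG1 and 3.45% jointly. CPM was computed here within each table, and exon lengths came from GENCODE vM21. A chi-square test between replicates gave 1.84 to 3.86 per degree of freedom, above sampling noise, so none was treated as a library deposited more than once; this does not show that they are independent cultures. The steps were tested on simulated data. Alternatives were DESeq2 1.42.0, other scalings, no filter, a minimum fold change, a replicate block, pooling of the KO lines and leaving out each library.

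The 30 genes, the role groups and the partner lists were chosen with earlier results of these data known. All 30 are named, as are, from each partner list, the called gene with the largest rise and the largest fall in OdG KO and in EG1 KO. Promoter sequences are RefSeq's (GRCm38.p6), and the genes whose promoters are printed were chosen after their values were seen. The scan of libraries lying outside all others was also added after the data were seen. Of the abscission list, 24 of 26 symbols were found in the tables.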

Additional observations from a re-analysis of the deposited data

Results flagged for a closer look

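At 14 of the 30 genes the KO effect in OdG differed from the KO effect in EG1 by the joint interaction test (edgeR, adjusted p under 0.05), which is what drew attention to them; 39.8% of all genes did so. The log2 difference, OdG effect minus EG1 effect, was positive for Cdc20 (0.46), Plk1 (0.31), Cdca8 (0.30), Espl1 (0.29), Aurka (0.19), Cenpf (0.17), Mad2l1 (0.16) and Kif20a (0.16). It was negative for Kif23 (-0.61), Anln (-0.41), Cdc25c (-0.40), Aurkb (-0.26), Bub1 (-0.25) and Top2a (-0.17). Table and parental line cannot be told apart. No group had enough libraries for a check of single samples that stand apart.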

How the results depend on the processing

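No call reversed under any alternative run. The share of all genes called was not computed for the alternative runs, so their counts cannot be set against a background. Upper-quartile scaling put the median log2 fold change of the 30 genes at -0.004 for OdG KO, 0.015 for line 1, -0.005 for line 2, 0 for line 1 over line 2 (5 genes higher) and -0.029 for the interaction; the medians are therefore not to be read as a direction. Without the filter, line 1 had a median of 0.083. A test against a minimum fold change of 1.2 (glmTreat) called 3 higher and 3 lower in OdG KO (Cdc20, Plk1, Cdca8; Kif23, Anln, Bub1), 3 and 3 in line 1, 5 and 2 in line 2, 0 and 0 between the lines, 0 higher in EG1 KO, and 1 higher and 2 lower in the interaction. DESeq2 called 4 higher and 3 lower in line 1 over line 2. With the 4 OdG KO libraries as a single group, 8 genes were higher and 5 lower in OdG KO, and the calls of Cdc25c, Incenp, Cenpf, Nusap1, Prc1 and Racgap1 were lost; the lines' difference then counts as spread. With a replicate block, 1 gene was higher in EG1 KO (Plk1 was lost, adjusted p = 0.056), and of the other calls only Ttk and Racgap1 between the lines were lost. Deviations of same-numbered libraries from their group means had correlations of -0.0464 to 0.0376. In groups of 2 libraries these deviations are mirror images of each other. In EG1, with 3 libraries a group, same-numbered libraries had correlations of -0.0464 to -0.0136 and differently numbered ones -0.0098 to 0.0458. Whether same-numbered libraries shared a batch was not tested.

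Leaving out each library in turn gave, as genes higher, genes lower and median log2 fold change, 11 to 12, 7 to 8 and 0.035 to 0.05 for OdG KO; 11 to 15, 6 and 0.077 to 0.089 for line 1; 8 to 10, 7 to 10 and 0.003 to 0.028 for line 2; 3 to 6, 1 to 4 and 0.018 to 0.049 between the lines; 1 to 3, 0 and 0.022 to 0.043 for EG1 KO; and 7 to 9, 6 to 7 and -0.018 to 0.017 for the interaction. A group left with 1 library was assumed to vary like the others. The cause of these changes was not tested. With 2 or 3 libraries a group, small log2 differences are the ones the calls depend on.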
